A study of Mus musculus with 6 samples.

Results

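The genes described here are 10 core regulators of the Bcl2 family, the protein family that decides whether a cell's mitochondria release the signals for apoptosis: Bcl2, Bcl2l1, Mcl1, Bax, Bak1, Bbc3, Pmaip1, Bcl2l11, Bid and Bad. They were chosen by name, and the brightest probeset that the array's annotation assigns to exactly 1 symbol stood for each gene. Of the 10 genes, 9 had such a probeset and all 9 passed the filter on dim genes, among 14020 genes tested in all; Bax has no named probeset in the annotation used, and its level was not analysed here. The values are log2 signals from 6 Mouse Gene ST arrays, so a difference of 1 is a doubling, and levels of different genes are not compared because each probeset has its own response.

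Every array held the RNA of 10 pooled blastocysts of let7g-transgenic mice, so all groups carry the let7g transgene. Dor-7g blastocysts were dormant in vivo on day 7, DOX-7g blastocysts were rendered dormant in vitro with DOX to induce let-7 and taken on day 7, and D4-act-7g blastocysts were activated and taken on day 4, with 2 arrays in each group. The promoter that drives the transgene and the means by which dormancy was brought about in vivo are not given in the sources used here. Day separates both dormant groups from D4-act-7g, and DOX-7g also differs in culture and in exposure to DOX, so these cannot be told apart from dormancy. No label states separate mice or pools for arrays sharing a group, so p-values measure the spread between these arrays, which may be technical.

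Bcl2 family proteins act in 3 roles. The survival proteins Bcl2, Bcl-xL (from Bcl2l1) and Mcl1 hold the pore-forming proteins Bax and Bak in check, and the BH3-only proteins Puma (Bbc3), Noxa (Pmaip1), Bim (Bcl2l11), Bid and Bad either block the survival proteins or activate the pore formers. Once Bax or Bak opens the outer mitochondrial membrane, cytochrome c leaves and caspases are switched on. In the mouse, embryos without Mcl1 die around the time of implantation, and in human liver cancer cells let-7 has been reported to lower Bcl-xL. Much of the family's control lies in protein turnover, binding and phosphorylation, which transcript levels do not show.

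The microRNA behind the transgene is shown first because its induction defines the DOX-7g group, with its seed in capitals (bases 2 to 8 of the mature RNA). The sequence is RefSeq's, at chr9:106178846-106178867 on the plus strand of GRCm38.p6. Of the 23 mature let-7 sequences in that table, counted with no choice between 5p and 3p names, 11 share this seed.
mmu-let-7g-5p: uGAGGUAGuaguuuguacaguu
The array's Mirlet7g probeset read 3.50 and 3.59 in Dor-7g, 3.46 and 3.20 in DOX-7g, and 3.31 and 3.56 in D4-act-7g, below the median of its array in each case. Whether it reads the transgene's RNA or mature let-7 is not known, so it does not check the induction.

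The arrays were not equally alike. Dor-7g replicate 1 had a median signal of 4.87, against 4.62 to 4.67 on the other arrays, and correlated with them at 0.899 to 0.919. Blastocyst markers were present throughout, with 9 of 10 at or above the array's median on every array; Sox2 was the one below it. Of 6 measured blood and immune markers, 3 and 3 lay at or above the median in Dor-7g, 5 and 5 in DOX-7g, and 1 and 2 in D4-act-7g, and their summed log2 level was 29.6 to 35.3, 43.1 to 44.5 and 27.3 to 29.8 in those groups. The neutrophil gene S100a9 read 7.10 and 6.41 in Dor-7g and 9.55 and 9.55 in DOX-7g, against 4.49 and 4.60 in D4-act-7g. Ly6g read 3.75 and 4.25 in Dor-7g and 7.41 and 7.39 in DOX-7g, against 3.65 and 4.08 in D4-act-7g. S100a9 passed the filter on dim genes through dormant arrays alone, and Ly6g through DOX-7g arrays alone. Higher values there were thus built into their choice, and both genes are given as levels only. S100a8 read 2.81 and 7.18 in Dor-7g and 10.91 and 10.12 in DOX-7g, against 3.28 and 3.16 in D4-act-7g. The macrophage gene Cd68 lay the other way in DOX-7g, at 6.90 and 9.19 in Dor-7g and 7.41 and 6.87 in DOX-7g, against 8.04 and 9.34 in D4-act-7g. Lyz2 read 5.46 and 4.62 in Dor-7g and 5.45 and 5.35 in DOX-7g, against 4.32 and 4.87 in D4-act-7g. Ptprc, the general leukocyte marker, lay below the median on all 6 arrays. For 7 uterine epithelium markers the sums were 35.8 to 36.9 in Dor-7g, 36.2 to 36.7 in DOX-7g and about 34.1 on both D4-act-7g arrays. On each array 5 or 6 of them lay at or above the median. Of the 6 tested, Muc1 differed most from D4-act-7g, by 0.99 in Dor-7g and 1.22 in DOX-7g, with 1 and 0 of the 6 lower. For 7 uterine stroma markers the sums were 36.4 to 40.5, 34.0 to 35.0 and 34.3 to 34.5, with 4 or 5 at or above the median. For 6 oocyte and cumulus markers they were 31.0 to 31.5, 30.5 to 30.8 and 32.3 to 33.8, with 4 to 6 at or above it. Of the 4 tested, Zp3 differed most from D4-act-7g, by -1.72 in Dor-7g and -1.24 in DOX-7g, with 2 and 1 of the 4 higher. The part these markers play in the differences below was not tested.

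**Figure D1:**
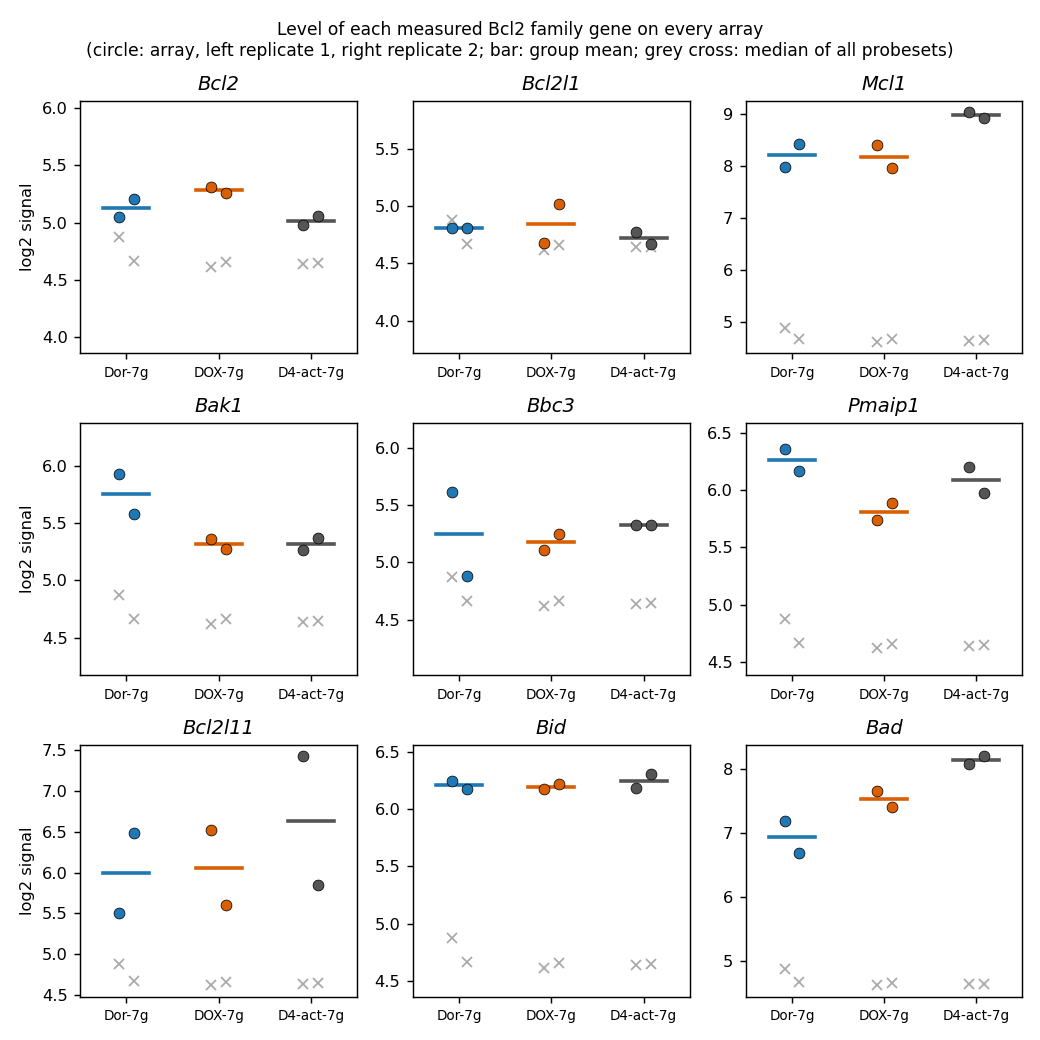
Each panel plots the log2 signal (vertical axis) of 1 measured Bcl2 family gene on every array by group, with circles for arrays, bars for group means of 2 arrays and grey crosses for the median of all probesets on that array. Mcl1 and Bad lie lower on all 4 day-7 arrays than on both D4-act-7g arrays, Bcl2l11 spreads widely within every group, and Bid hardly differs between arrays.

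Among the survival genes, Mcl1 had the lower level in both kinds of dormant blastocyst, while Bcl2 and Bcl2l1 differed little. Mcl1, whose protein turns over fast and restrains Bak and Bim, stood at 7.98 and 8.43 in Dor-7g and at 8.40 and 7.96 in DOX-7g, against 9.04 and 8.93 in D4-act-7g. All 4 dormant arrays lay below both D4-act-7g arrays, and the dormant groups overlapped each other. The difference was -0.78 ± 0.25 (SE, n = 2 each) in Dor-7g versus D4-act-7g, which is 58.4% of the D4-act-7g signal with a 95% interval of 38.2% to 89.1%. In limma's fit over all genes its unadjusted p was 0.0210 and its adjusted p was 0.243, past the threshold of 0.05 only before adjustment. In DOX-7g versus D4-act-7g the difference was -0.81 ± 0.25, or 57.2% of the D4-act-7g signal (95% interval 37.5% to 87.4%), with an unadjusted p of 0.0183 and an adjusted p of 0.304 in limma. Between DOX-7g and Dor-7g the difference was -0.03 ± 0.25 (limma, adjusted p = 0.968), an interval of -0.64 to 0.58, and it turned to 0.10 when arrays were centred on their median.

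A second, dimmer Mcl1 probeset pointed the same way with a smaller size. It read 6.78 and 6.55 in Dor-7g and 6.78 and 6.81 in DOX-7g, against 6.86 and 6.91 in D4-act-7g, differences of -0.22 and -0.09. The arrays of both dormant groups lay below both D4-act-7g arrays on it too, but the size of the Mcl1 difference depends on the probeset. Averaging both probesets gave -0.50 and -0.45 in Dor-7g and DOX-7g versus D4-act-7g.

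Bcl2, the founding survival gene, read 5.05 and 5.21 in Dor-7g and 5.31 and 5.26 in DOX-7g, against 4.98 and 5.05 in D4-act-7g. Both DOX-7g arrays were above both arrays of either other group, by small amounts. The differences were 0.11 ± 0.17 in Dor-7g versus D4-act-7g and 0.27 ± 0.17 in DOX-7g versus D4-act-7g (SE, n = 2 each; limma, adjusted p = 0.786 and 0.690), and the first turned to -0.016 when arrays were centred on their median. DOX-7g minus Dor-7g was 0.16 ± 0.17 (limma, adjusted p = 0.708). A second Bcl2 probeset lay below the array's median on all 6 arrays, at 4.00 and 3.61 in Dor-7g, 3.40 and 3.32 in DOX-7g, and 3.48 and 3.36 in D4-act-7g, so it gave the reverse order between the dormant groups at a dim level.

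Bcl2l1, which encodes Bcl-xL, was close to the array's median on every array. It read 4.81 and 4.81 in Dor-7g and 4.67 and 5.02 in DOX-7g, against 4.77 and 4.67 in D4-act-7g. The 2 DOX-7g arrays lay on either side of the Dor-7g pair, and the groups differed by less than those 2 arrays. The differences were 0.09 ± 0.19 in Dor-7g and 0.13 ± 0.19 in DOX-7g versus D4-act-7g (SE, n = 2 each; limma, adjusted p = 0.856 and 0.928), and the first turned to -0.038 after a second quantile normalization and to -0.039 when arrays were centred on their median. Their 95% intervals ran from -0.38 to 0.56 and from -0.35 to 0.60. DOX-7g minus Dor-7g was 0.04 ± 0.19 (limma, adjusted p = 0.944).

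Of the pore formers among the chosen genes, Bax and Bak1, only Bak1 was measured. Bak1 sits in the outer mitochondrial membrane and is restrained there by Mcl1 and Bcl-xL. It read 5.93 and 5.58 in Dor-7g and 5.36 and 5.27 in DOX-7g, against 5.26 and 5.37 in D4-act-7g. Both Dor-7g arrays were above all other arrays, while DOX-7g and D4-act-7g overlapped and had nearly equal means of 5.31 and 5.31. The difference was 0.44 ± 0.20 in Dor-7g versus D4-act-7g (SE, n = 2 each; unadjusted p = 0.0667 and adjusted p = 0.385 in limma) and 0.31 with the arrays centred on their median. It was 0.00 ± 0.20 in DOX-7g versus D4-act-7g, with a 95% interval of -0.48 to 0.48, and -0.44 ± 0.20 in DOX-7g versus Dor-7g (limma, adjusted p = 0.463). Dor-7g replicate 1, the array that stood apart, was the higher of the pair, and without it the Dor-7g difference from D4-act-7g was 0.26.

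**Figure D2:**
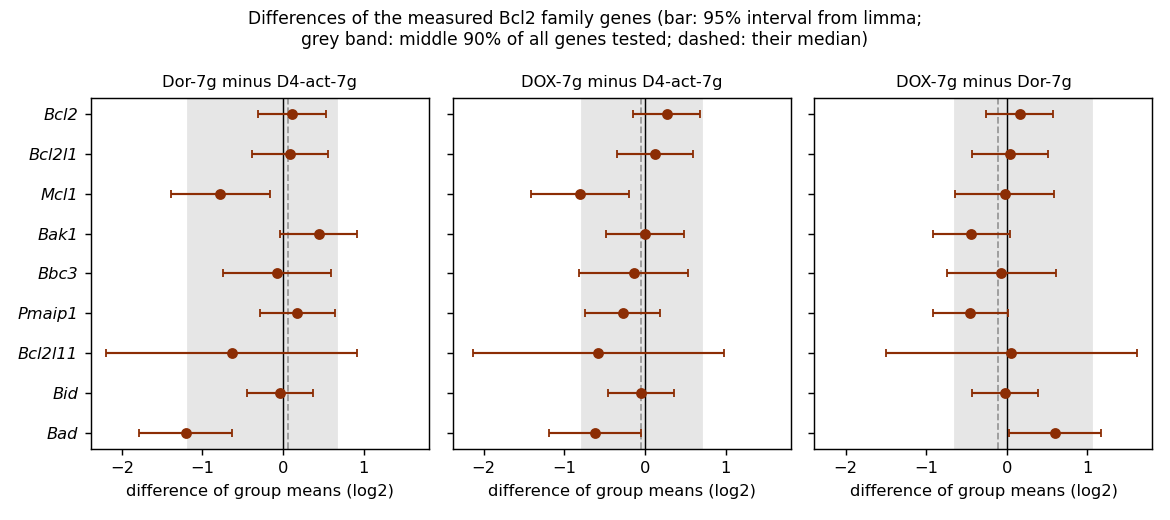
Points give the difference of group means (horizontal axis, log2) for the 9 measured Bcl2 family genes in each of 3 comparisons, with 95% intervals from limma; the grey band holds the middle 90% of all 14020 genes and the dashed line marks their median. Bad lies at -1.21 in Dor-7g versus D4-act-7g, just outside the band, and Mcl1 at -0.81 in DOX-7g versus D4-act-7g, also just outside it, and the intervals of the other 7 genes include 0 in every comparison.

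Bad had the largest difference of the 9 genes in Dor-7g. Its protein is a BH3-only antagonist of Bcl2 and Bcl-xL that survival signals phosphorylate, after which 14-3-3 proteins hold it in the cytosol. Bad stood at 7.17 and 6.68 in Dor-7g and at 7.64 and 7.39 in DOX-7g, against 8.08 and 8.20 in D4-act-7g. The 3 groups did not overlap, and the order of levels was Dor-7g, DOX-7g and D4-act-7g from low to high. Dor-7g minus D4-act-7g was -1.21 ± 0.23 (SE, n = 2 each), or 43.2% of the D4-act-7g signal with a 95% interval of 29.1% to 64.2%. Its unadjusted p of 0.00216 in limma ranked 307 among the 14020 genes, and its adjusted p of 0.0981 missed the threshold. Without Dor-7g replicate 1 the difference was -1.46 with an adjusted p of 0.0465 in limma, and without Dor-7g replicate 2 it was -0.96 with the call not made. The range of adjusted p over all 15 alternatives was 0.0465 to 0.465 in limma.

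In DOX-7g versus D4-act-7g the Bad difference was -0.62 ± 0.23, or 65.2% of the D4-act-7g signal (95% interval 43.9% to 96.9%), with an unadjusted p of 0.0384 and an adjusted p of 0.417 in limma. The 2 dormant groups were also set against each other directly: DOX-7g minus Dor-7g was 0.59 ± 0.23 (unadjusted p = 0.0439 and adjusted p = 0.419 in limma). These comparisons share arrays and are given side by side only. No pair of neighbours in the order of levels passed the adjusted threshold, although their arrays did not overlap. A further probeset carries Bad together with the symbol Gpr137 and was not used for either gene. It read 6.10 and 5.93 in Dor-7g and 6.02 and 6.002 in DOX-7g, against 6.16 and 6.24 in D4-act-7g. All 4 dormant arrays lay below both D4-act-7g arrays on it too, but its differences of -0.19 in Dor-7g and -0.19 in DOX-7g were much smaller than those of the probeset used, and the dormant groups overlapped.

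**Figure D3:**
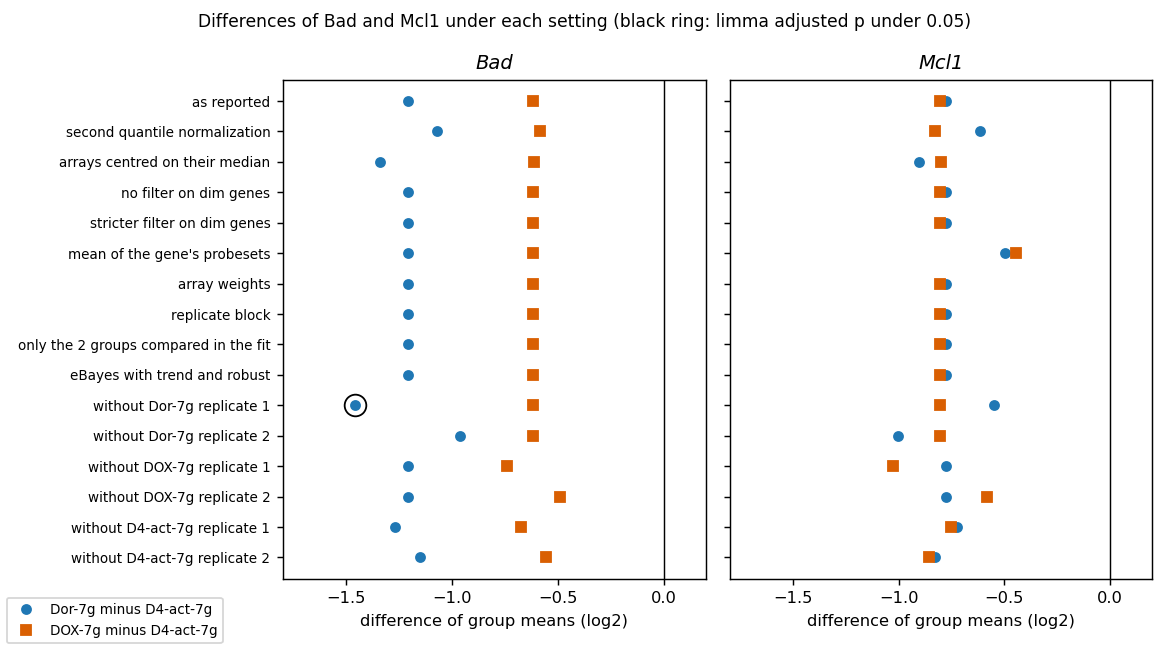
The difference of group means (horizontal axis, log2) of Bad and Mcl1 is plotted for each of 16 settings (rows), with circles for Dor-7g minus D4-act-7g and squares for DOX-7g minus D4-act-7g. Every value lies below 0, and 1 of the plotted values, Bad in Dor-7g without Dor-7g replicate 1, is past limma's adjusted threshold (ringed).

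The other BH3-only genes gave no difference past limma's threshold, and their spread between arrays varied widely. Bcl2l11 encodes Bim, which can bind all the survival proteins. It read 5.51 and 6.49 in Dor-7g and 6.52 and 5.60 in DOX-7g, against 7.43 and 5.84 in D4-act-7g. One array of each dormant group lay between the D4-act-7g arrays and the other below both. The 2 D4-act-7g arrays differed by 1.59 log2 units, at percentile 99.5 of all genes, against a median of 0.172. The differences of -0.64 ± 0.63 in Dor-7g and -0.58 ± 0.63 in DOX-7g versus D4-act-7g were no larger than that spread (SE, n = 2 each; limma, adjusted p = 0.675 and 0.877). Both turned positive, at 0.16 and 0.21, without D4-act-7g replicate 1. DOX-7g minus Dor-7g was 0.06 ± 0.63 (limma, adjusted p = 0.976), and -0.43 without Dor-7g replicate 1.

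Pmaip1 encodes Noxa, which binds Mcl1 and favours its degradation. It read 6.36 and 6.17 in Dor-7g and 5.73 and 5.89 in DOX-7g, against 6.20 and 5.97 in D4-act-7g. Both DOX-7g arrays were below all others, and Dor-7g and D4-act-7g overlapped. The differences were 0.18 ± 0.19 in Dor-7g and -0.28 ± 0.19 in DOX-7g versus D4-act-7g (SE, n = 2 each; limma, adjusted p = 0.695 and 0.725). DOX-7g minus Dor-7g was -0.45 ± 0.19, with a 95% interval of -0.92 to 0.01 (unadjusted p = 0.0539 and adjusted p = 0.439 in limma).

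Bbc3 encodes Puma, a direct p53 target that binds all the survival proteins. It read 5.62 and 4.88 in Dor-7g and 5.11 and 5.25 in DOX-7g, against 5.32 and 5.32 in D4-act-7g. The 2 Dor-7g arrays lay on either side of all the rest. The differences were -0.08 ± 0.27 in Dor-7g and -0.14 ± 0.27 in DOX-7g versus D4-act-7g (SE, n = 2 each; limma, adjusted p = 0.915 and 0.952). The first was -0.45 without Dor-7g replicate 1 and 0.29 without Dor-7g replicate 2. DOX-7g minus Dor-7g was -0.07 ± 0.27 (limma, adjusted p = 0.928), and positive under a second quantile normalization (0.042) and with arrays centred on their median (0.065).

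Bid, which caspase-8 cleaves to link death receptors to the mitochondria, differed little between groups. It read 6.25 and 6.18 in Dor-7g and 6.17 and 6.22 in DOX-7g, against 6.18 and 6.31 in D4-act-7g. All groups overlapped. The differences were -0.03 ± 0.17 and -0.05 ± 0.17 in Dor-7g and DOX-7g versus D4-act-7g (SE, n = 2 each; limma, adjusted p = 0.941 and 0.980), with 95% intervals of -0.44 to 0.38 and -0.46 to 0.36. DOX-7g minus Dor-7g was -0.02 ± 0.17 (limma, adjusted p = 0.970) and 0.020 and 0.11 under those same 2 scalings.

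Over the family, none of the 9 measured genes passed limma's adjusted threshold in any comparison. Of all genes tested, 0.984% passed in Dor-7g versus D4-act-7g, 0.956% in DOX-7g versus D4-act-7g and 1.16% in DOX-7g versus Dor-7g, so a count of 0 among 9 is near that background. At an unadjusted p under 0.05 in limma, Bad and Mcl1 were lower in Dor-7g and in DOX-7g than in D4-act-7g, 2 of 9 in each comparison, against 8.81% and 6.4% of all genes; none was higher, against 5.44% and 4.61%. In DOX-7g versus Dor-7g, Bad alone was higher at that threshold and none was lower, against 6.06% and 5.53% of all genes.

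Counts of genes whose arrays did not overlap were also near those of all genes. In Dor-7g versus D4-act-7g, 2 of 9 were above (Bak1 and Bcl2l1) and 2 below (Mcl1 and Bad), against 24.3% and 21.5% of all genes. In DOX-7g versus D4-act-7g, 1 was above (Bcl2) and 4 below (Mcl1, Bbc3, Pmaip1 and Bad), against 19.2% and 30.5%. In DOX-7g versus Dor-7g, 2 were above (Bcl2 and Bad) and 2 below (Bak1 and Pmaip1), against 15% and 26.7%. Mcl1 and Bad were the 2 of 9 genes with all 4 day-7 arrays below both D4-act-7g arrays, as were 13.4% of all genes. The median difference of the 9 genes was -0.03, -0.14 and -0.02 in these comparisons, against 0.06, -0.05 and -0.11 for all genes.

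The all-gene median moved with the scaling of the arrays. Centring each array on its median shifted every Dor-7g minus D4-act-7g difference by -0.13 and every DOX-7g minus Dor-7g difference by 0.13. Relative to the median of all genes as deposited, Bad stood at -1.27 and Mcl1 at -0.84 in Dor-7g, and at -0.56 and -0.75 in DOX-7g, each against D4-act-7g. As these are bulk samples, fewer cells of a type and less RNA per cell cannot be told apart in any of these differences.

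The genes whose pattern over the 6 arrays was most like that of Bad were Kcnk12 (Pearson's r = 0.997), Alad (0.993) and Ptges2 (0.990). For scale, 1.56% of all genes had an r above 0.9 with Bad over these 6 arrays. Alad, an enzyme of haem synthesis, read 10.43 and 9.68 in Dor-7g and 10.85 and 10.55 in DOX-7g, against 11.44 and 11.40 in D4-act-7g.

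The sequences upstream of Mcl1 and Bad are shown because these 2 genes had all 4 dormant arrays below both D4-act-7g arrays, without passing the adjusted threshold. Each line gives the 250 bases before a RefSeq transcription start in GRCm38.p6 on the gene's own strand, which is the plus strand for both genes. The windows are chr3:95658471-95658720 for Mcl1, and chr19:6941611-6941860 and chr19:6942312-6942561 for the first and second start of Bad. Capitals mark matches on either strand to 5 motifs: the GC box GGGCGG, the E box CACGTG, the cyclic-AMP response element TGACGTCA, the forkhead site GTAAACA and the CCAAT box CCAAT; none of these motifs overlaps another here.
Mcl1: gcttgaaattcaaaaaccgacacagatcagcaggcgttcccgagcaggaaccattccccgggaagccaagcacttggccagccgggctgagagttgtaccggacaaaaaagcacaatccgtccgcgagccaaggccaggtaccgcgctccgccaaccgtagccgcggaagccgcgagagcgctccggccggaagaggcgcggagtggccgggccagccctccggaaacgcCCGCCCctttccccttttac
Bad, first start: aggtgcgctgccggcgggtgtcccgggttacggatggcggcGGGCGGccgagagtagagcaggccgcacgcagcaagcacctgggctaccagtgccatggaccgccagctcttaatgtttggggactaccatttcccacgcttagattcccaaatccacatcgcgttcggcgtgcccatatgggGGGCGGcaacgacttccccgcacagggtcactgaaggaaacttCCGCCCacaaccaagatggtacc
Bad, second start: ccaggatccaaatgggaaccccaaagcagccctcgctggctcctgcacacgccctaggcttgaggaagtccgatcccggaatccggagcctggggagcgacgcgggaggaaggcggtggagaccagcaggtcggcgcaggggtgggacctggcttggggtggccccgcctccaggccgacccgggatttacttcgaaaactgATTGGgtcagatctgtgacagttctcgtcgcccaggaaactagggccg
The Mcl1 window held 1 GC box, the first Bad window 3, and the second Bad window 1 CCAAT box. Of 32851 windows of this length in the table, 32.7% held a GC box and 33.8% a CCAAT box. No E box, response element or forkhead match was found in the 3 windows, motifs held by 6.02%, 1.55% and 3.17% of all windows. These matches describe letters, not binding. RefSeq windows were found for 9 of the 10 genes.

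The rest of the apoptosis pathway was read through 6 further lists, and no gene of any list passed limma's adjusted threshold in any comparison. Of the 39 genes tested over these lists, 7 were lower and 2 higher in Dor-7g than in D4-act-7g at an unadjusted p under 0.05 in limma, against 8.81% and 5.44% of all genes. In DOX-7g versus D4-act-7g these counts were 3 and 0 (6.4% and 4.61%), and in DOX-7g versus Dor-7g 0 were lower and 4 higher (5.53% and 6.06%). Bcl2l15 and Apaf1 passed the filter on dim genes through their D4-act-7g arrays alone, so lower values in both dormant groups were built into their choice. Without these 2 genes, a count made after seeing the data, 6 of 37 were lower and 2 higher in Dor-7g versus D4-act-7g. All genes left by the same exclusion gave 8.75% and 5.27%. In DOX-7g versus D4-act-7g 2 were lower and 0 higher (6.21% and 4.26%), and in DOX-7g versus Dor-7g 0 and 4 (5.34% and 5.77%). The other Bcl2 family genes comprised 7 tested of 15 listed. In Dor-7g versus D4-act-7g, 4 of these 7 were lower at an unadjusted p under 0.05 in limma (8.81% of all genes). The median difference of the 7 was -0.70, against 0.06 for all genes. Without Bcl2l15, 3 of 6 were lower, against 8.75% of all genes left by the same exclusion, and the median was -0.54. The 4 lower genes were Bok, Bcl2l15, Bnip3 and Bcl2l14, of which the last is named after its values were seen. Bcl2l14 read 4.48 and 4.50 in Dor-7g, below the array medians of 4.87 and 4.67. It passed the filter through DOX-7g and D4-act-7g arrays alone, so its lower Dor-7g level carries a limit like that of Bcl2l15. Bok, a relative of Bax and Bak, read 8.17 and 7.65 in Dor-7g and 8.89 and 9.16 in DOX-7g, against 9.30 and 9.27 in D4-act-7g. Its arrays were lowest in Dor-7g with no overlap with either other group. The Bok difference was -1.37 ± 0.24 in Dor-7g versus D4-act-7g (limma, adjusted p = 0.0778), -0.26 ± 0.24 in DOX-7g versus D4-act-7g (limma, adjusted p = 0.835), and 1.11 ± 0.24 in DOX-7g versus Dor-7g (limma, adjusted p = 0.155).

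Bnip3, a BH3-like gene of hypoxia and mitophagy, read 6.46 and 7.09 in Dor-7g and 7.80 and 7.81 in DOX-7g, against 7.96 and 7.53 in D4-act-7g. DOX-7g and D4-act-7g overlapped, and Dor-7g lay below both. The difference was -0.97 ± 0.28 in Dor-7g versus D4-act-7g (limma, adjusted p = 0.211) and 1.03 ± 0.28 in DOX-7g versus Dor-7g (limma, adjusted p = 0.247). Bcl2l15 read 3.80 and 3.95 in Dor-7g and 4.23 and 3.80 in DOX-7g, against 4.82 and 5.00 in D4-act-7g, and all 4 dormant arrays lay below their array's median. Its differences from D4-act-7g, fixed in sign by the filter, are given as these levels only. In DOX-7g versus D4-act-7g none of the other 6 genes had an unadjusted p under 0.05 in limma; Bmf, a BH3-only gene, had the smallest p of them, with a difference of 0.36. The list's median was -0.14 in DOX-7g versus D4-act-7g and 0.23 in DOX-7g versus Dor-7g, and -0.07 and 0.34 without Bcl2l15. In DOX-7g versus Dor-7g all 7 genes lay above 0, Bmf by only 0.015, as did 37.1% of all genes. Bcl2l14 is among the 7, and its higher level in DOX-7g than in Dor-7g was favoured by the filter, which it passed without its Dor-7g arrays.

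**Figure D4:**
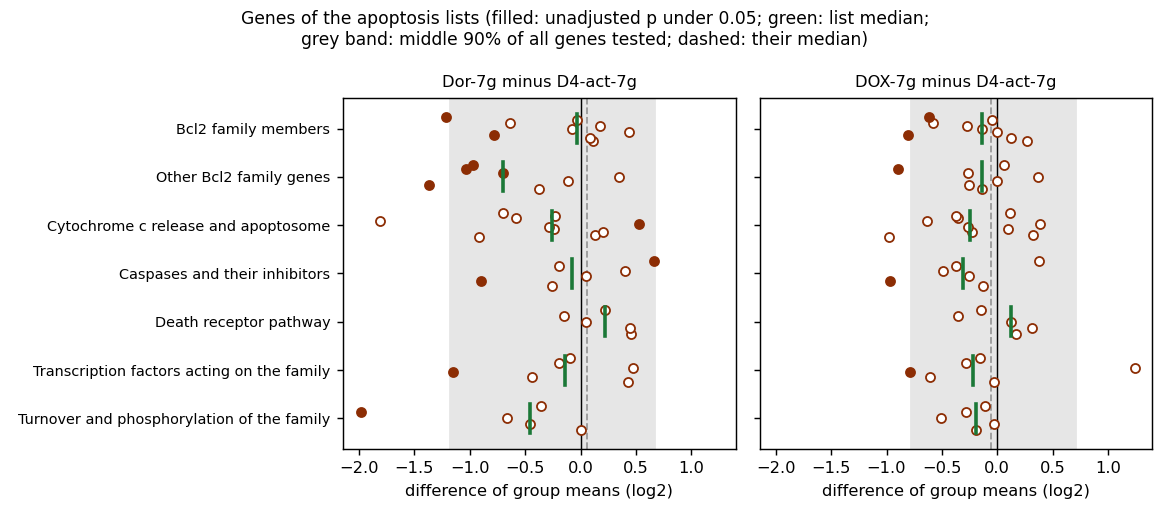
Each circle is a gene of 1 of 7 apoptosis lists (rows), placed by its difference of group means (horizontal axis, log2) in Dor-7g (left) and DOX-7g (right), each minus D4-act-7g; filled circles have an unadjusted p under 0.05, green bars are list medians, and the grey band holds the middle 90% of all genes. The other Bcl2 family genes have a median of -0.70 in Dor-7g and -0.14 in DOX-7g with Bcl2l15, which is lower through the filter, and -0.54 and -0.07 without it. Bcl2l14, which passed the filter without its Dor-7g arrays, is included in all of these medians. The remaining medians lie between -0.46 and 0.22.

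The genes of cytochrome c release and the apoptosome had medians of -0.26 in Dor-7g and -0.25 in DOX-7g versus D4-act-7g over all 10 listed genes, and 0.11 in DOX-7g versus Dor-7g; without Apaf1 they were -0.24, -0.23 and 0.19. Casp9, the caspase activated on the apoptosome, read 7.21 and 7.12 in Dor-7g and 7.07 and 6.99 in DOX-7g, against 6.64 and 6.64 in D4-act-7g. It was above D4-act-7g on all 4 dormant arrays, by 0.52 ± 0.16 in Dor-7g and 0.38 ± 0.16 in DOX-7g (limma, adjusted p = 0.238 and 0.487). Endog, a mitochondrial nuclease, gave -0.70 in Dor-7g versus D4-act-7g and 0.81 in DOX-7g versus Dor-7g, Vdac1, a channel of the outer membrane, -0.98 in DOX-7g versus D4-act-7g, and Cycs, cytochrome c itself, 0.33 in DOX-7g versus Dor-7g.

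Of 6 tested genes of caspases and their inhibitors, Casp6, an executioner caspase, read 6.40 and 6.56 in Dor-7g and 6.32 and 6.50 in DOX-7g, against 7.04 and 7.71 in D4-act-7g. All 4 dormant arrays were below D4-act-7g, with differences of -0.90 ± 0.26 and -0.97 ± 0.26 (limma, adjusted p = 0.219 and 0.241). Birc6, an inhibitor of apoptosis, was at 0.67 in Dor-7g versus D4-act-7g (limma, adjusted p = 0.349), Birc3 at -0.37 in DOX-7g versus D4-act-7g, and Birc2 and Xiap at -0.89 and -0.30 in DOX-7g versus Dor-7g. The list's medians were -0.07 in Dor-7g and -0.31 in DOX-7g versus D4-act-7g, and -0.23 in DOX-7g versus Dor-7g. The 5 tested death receptor pathway genes had medians of 0.22, 0.13 and -0.20 in the same comparisons, with none under an unadjusted p of 0.05 in limma. The genes with the smallest p there are given with their log2 differences. They were the receptors Tnfrsf1a and Tnfrsf10b in Dor-7g versus D4-act-7g (differences of 0.44 and 0.45). In DOX-7g versus D4-act-7g they were the adaptor Tradd and Tnfrsf1a (differences of -0.36 and 0.31). Between DOX-7g and Dor-7g they were the caspase-8 regulator Cflar and Tradd (differences of -0.37 and -0.20).

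Among 6 transcription factors that act on the family, Foxo3, which can switch on Bim and Puma, read 7.20 and 7.62 in Dor-7g and 7.68 and 7.86 in DOX-7g, against 8.83 and 8.29 in D4-act-7g. All 4 dormant arrays were below both D4-act-7g arrays, with differences of -1.15 ± 0.26 and -0.79 ± 0.26 (limma, adjusted p = 0.144 and 0.351). In DOX-7g versus Dor-7g the Foxo3 difference was 0.36 ± 0.26 (limma, adjusted p = 0.605), and those arrays did not overlap. Foxo1 gave -0.61 in DOX-7g versus D4-act-7g, and Trp73, the p53 relative, 0.43 in Dor-7g versus D4-act-7g and -0.46 in DOX-7g versus Dor-7g. The medians of this list were -0.14, -0.22 and -0.07 in Dor-7g and DOX-7g versus D4-act-7g and in DOX-7g versus Dor-7g.

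Of 5 tested genes of turnover and phosphorylation, Gsk3b, a kinase that marks Mcl1 for degradation, read 3.83 and 5.99 in Dor-7g and 6.61 and 6.60 in DOX-7g, against 7.05 and 6.74 in D4-act-7g. The low value on Dor-7g replicate 1 made up much of its difference of -1.98 ± 0.66 in Dor-7g versus D4-act-7g (limma, adjusted p = 0.262). The same array entered the Gsk3b difference of 1.70 ± 0.66 in DOX-7g versus Dor-7g (limma, adjusted p = 0.418), the smallest p of the list there. Akt1, a kinase that phosphorylates Bad, was at -0.66 in Dor-7g and -0.51 in DOX-7g versus D4-act-7g (limma, adjusted p = 0.413 and 0.692), Fbxw7 at -0.20 in DOX-7g versus D4-act-7g, and Ywhaz, a 14-3-3 protein, at 0.24 in DOX-7g versus Dor-7g. The list's medians were -0.46, -0.20 and 0.24 in the order Dor-7g versus D4-act-7g, DOX-7g versus D4-act-7g and DOX-7g versus Dor-7g.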

How the data were processed

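The authors deposited 1 log2 value per probeset and array for 41345 probesets; the submitters' processing notes name Partek 6.6 and RMA without settings, and no source used here gives the genome build. RMA corrects background, normalizes and summarizes probes. Groups and replicate numbers came from the sample titles. Probesets with 1 symbol (23521; 1814 had several and 16010 none) were renamed by Entrez identifier through a RefSeq table, with 193 not matched, and kept where at least 2 of 6 arrays reached the array's median. One model in limma 3.58.1, run in R 4.3.3, gave each group its mean over all 6 arrays, with 3 residual and 2.81 prior degrees of freedom, and Benjamini-Hochberg adjustment over all 14020 genes at 0.05; the fit was tested on simulated data. The 2-array groups allow an exact permutation p no smaller than 0.333, so none was used. No detection calls were used, and the number of arrays limits precision.

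The genes and lists were chosen with earlier results of these data known. All 10 family genes are described, and of each pathway list the 2 genes with the smallest p in a comparison where none passed.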

Additional observations from a re-analysis of the deposited data

How the results depend on the processing

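No family gene passed the threshold in any comparison under the 15 alternatives, except Bad in Dor-7g versus D4-act-7g without Dor-7g replicate 1 (-1.46); leaving out 1 array thus gave counts of 0 to 1 there. The counts of all genes passing moved more. Against 138, 134 and 163 genes in Dor-7g versus D4-act-7g, DOX-7g versus D4-act-7g and DOX-7g versus Dor-7g, array weights gave 79, 461 and 104, and a fit of only the compared groups 86, 296 and 86. Leaving out 1 array gave 11 to 1172, 43 to 296 and 67 to 880; a group left with 1 array is assumed to vary like the others. The sample titles give replicate numbers but no pairing of samples across groups. Deviations of replicate 1 from its group mean correlated at -0.0114 to -0.137 between groups, which cannot show whether samples were paired. A replicate block gave 82, 90 and 116 genes and 0 family genes. With the Dor-7g numbers crossed, chosen after seeing the data, DOX-7g versus Dor-7g gave 139 and 0.

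Only differences near 0 and those of Bcl2l11 changed sign. A second quantile normalization gave -0.038 for Bcl2l1 in Dor-7g versus D4-act-7g, and 0.042 for Bbc3 and 0.020 for Bid in DOX-7g versus Dor-7g. Centring arrays gave -0.016 for Bcl2 and -0.039 for Bcl2l1 in the first comparison, and 0.10 for Mcl1, 0.065 for Bbc3 and 0.11 for Bid in the other. The mean of the probesets gave 0.052 for Mcl1 in DOX-7g versus Dor-7g. Leaving out 1 array gave, in Dor-7g versus D4-act-7g, -0.45 to 0.29 for Bbc3, -0.095 to 0.028 for Bid and -1.43 to 0.16 for Bcl2l11. In DOX-7g versus D4-act-7g it gave -0.054 to 0.054 for Bak1, -0.046 to 0.30 for Bcl2l1, -1.37 to 0.21 for Bcl2l11 and -0.11 to 0.010 for Bid. In DOX-7g versus Dor-7g it gave -0.44 to 0.30 for Bbc3, -0.43 to 0.55 for Bcl2l11, -0.052 to 0.016 for Bid, -0.13 to 0.21 for Bcl2l1 and -0.25 to 0.20 for Mcl1. The cause was not tested.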

Other observations

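Single arrays differed strongly within a group for some genes near the family. Ddit3, which encodes the stress factor Chop that can lower Bcl2 and raise Bim, read 7.77 and 10.73 in Dor-7g and 9.18 and 10.86 in DOX-7g, against 8.50 and 9.06 in D4-act-7g. Its differences from D4-act-7g were 0.47 ± 1.02 in Dor-7g and 1.24 ± 1.02 in DOX-7g (SE, n = 2 each; limma, adjusted p = 0.857 and 0.804). The stromal gene Dcn read 4.22 and 9.29 in Dor-7g, 3.67 and 3.87 in DOX-7g, and 3.87 and 3.86 in D4-act-7g. The other stromal markers did not share the high Dcn value of Dor-7g replicate 2: Col1a1 read 6.56 and 6.45, Col1a2 5.80 and 5.63, and Col3a1 5.74 and 5.51 in Dor-7g.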
